A study of Saccharomyces cerevisiae with 6 samples.

Results

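The genes described here are 8 genes of the budding yeast Saccharomyces cerevisiae that encode hydrolases of the vacuole or inhibitors of its proteinases: PEP4, PRB1, PRC1, APE3, AMS1, CPS1, PBI2 and PAI3. They were chosen by name from the 6400 named entries of the expression table, with earlier results of these data known. All 8 were present and above the filter on low values. Poly(A) RNA was sequenced from 6 libraries of W303, a laboratory strain, as 2 libraries, replicates A and B, in each of 3 groups titled Arrest T1, Arrest T2 and Arrest T3. The study's question was how the transcriptome differs between yeast populations of different mean cell size. The labels give neither the size nor the time of any group, nor the allele or agent behind the arrest, and no group is labelled as a control. The groups are given in the order of their labels, which is not stated to be an order of time or size. Whether A and B were grown separately is not stated, and the p-values therefore measure only the spread between these libraries, which may be technical.

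The yeast vacuole is the counterpart of the animal lysosome and holds most of the cell's nonspecific proteolysis. Its soluble proteinases are made as inactive precursors, pass through the endoplasmic reticulum and Golgi, and are activated in the vacuole by a cascade that starts with proteinase A, the product of PEP4. The cytosol contains small protein inhibitors, each with a preferred vacuolar proteinase, and levels of many of these enzymes are known to be higher in starved or stationary cells than in growing ones.

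All 8 genes were higher in T3 than in T1, and 0 were lower. The log2 change ran from 0.28 for CPS1 to 1.67 for AMS1, with a median of 0.94, against a median of 0.09 over the 6046 genes tested. Among all genes tested, 31.0% were called higher and 16.9% lower in the same comparison, at an adjusted p under 0.05 in limma. The T1 and T3 libraries did not overlap for any of the 8. The share of all genes without overlap was not counted, so this is no result about the 8. Among other genes named below and not called in this comparison, ATG15, DPP1, VMA3 and YPQ1 did not overlap either. DAP2, ECM14, ATG27 and DUG1 did. The summed level of the 8 was 1107 and 1162 TPM (a share of the library's transcripts, adjusted for gene length) in T1 replicates A and B, 1330 and 1379 TPM in T2, and 2011 and 1858 TPM in T3. TPM is a share of each library's messenger RNA, so more copies per cell, more cells that express a gene and less of other messages cannot be told apart.

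**Figure D1:**
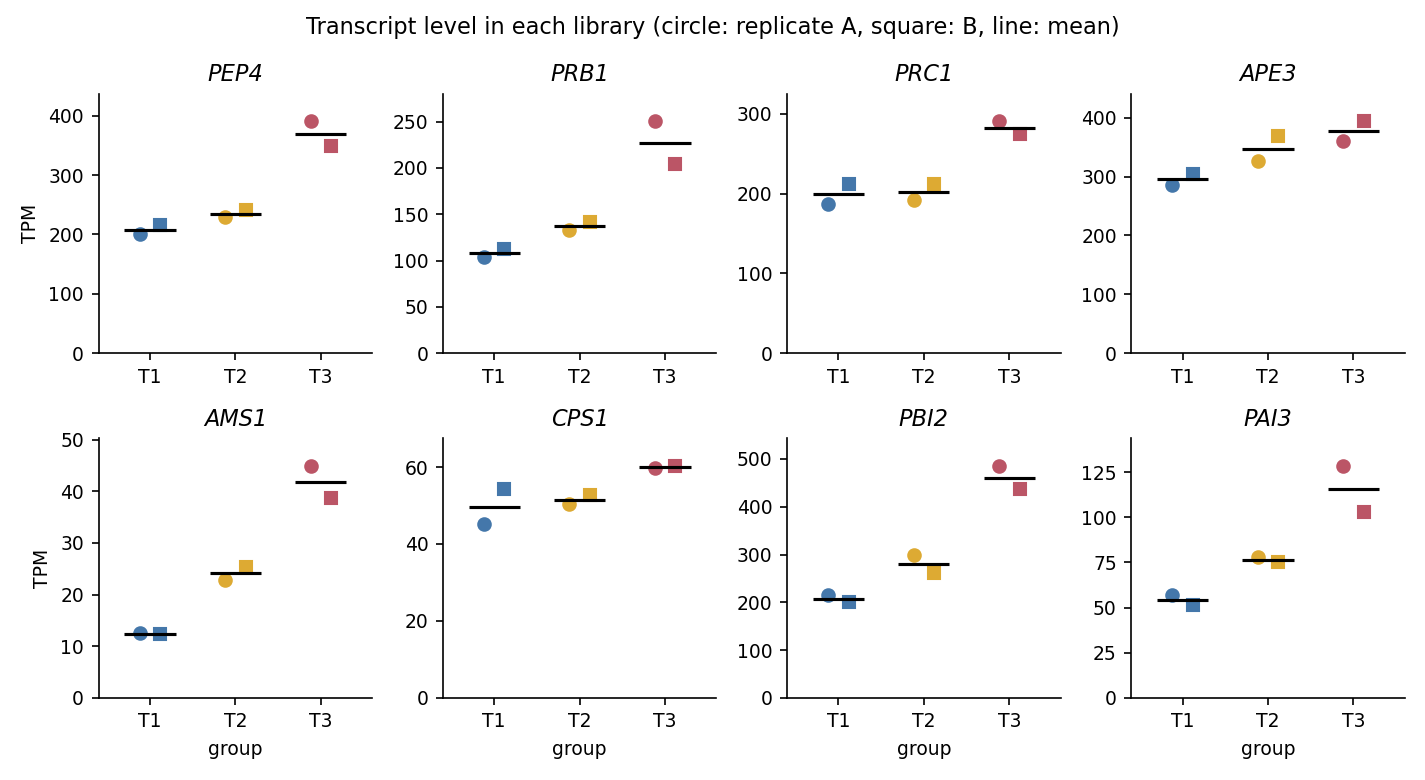
Transcript level in TPM (y axis, from 0) of each of the 8 genes in groups T1, T2 and T3 (x axis), with circles for replicate A, squares for replicate B and lines for the mean of both. Both T3 libraries lie above both T1 libraries in every panel, from 44.9 and 38.7 against 12.6 and 12.3 TPM for AMS1 to 59.8 and 60.3 against 45.1 and 54.2 TPM for CPS1. The share of all genes with such a separation was not counted, so it is no result about the 8.

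PEP4 (YPL154C, chromosome XVI, 259714 to 260931 on the minus strand of R64) encodes proteinase A, the aspartic proteinase that activates itself and the other precursors. PEP4 stood at 200.2 and 215.1 TPM in T1, 229.1 and 240.8 TPM in T2, and 390.4 and 348.1 TPM in T3. Both T3 libraries were well above the other 4, and T2 lay just above T1. The T3 mean was 369.2 ± 30.0 TPM (SD, n = 2) against 207.7 ± 10.5 TPM (SD, n = 2) in T1, a log2 change of 0.83 with an SE of 0.09, or 1.77-fold, at a limma adjusted p of 7.47e-06.

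PRB1 (YEL060C, chromosome V, 40046 to 41953, minus strand) encodes proteinase B, a subtilisin-type serine proteinase that completes the processing of several vacuolar enzymes. Its level was 104.1 and 112.1 TPM in T1, 132.5 and 141.4 TPM in T2, and 250.2 and 203.8 TPM in T3. The 3 groups stood apart in rising order, with the widest gap between replicates in T3. PRB1 rose 2.08-fold from T1 to T3, a log2 change of 1.06 with an SE of 0.11 and a limma adjusted p of 3.03e-06.

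PRC1 (YMR297W, chromosome XIII, 861922 to 863520, plus strand) encodes carboxypeptidase Y, the serine carboxypeptidase long used to study vacuolar sorting. PRC1 held 187.6 and 212.7 TPM in T1, 192.7 and 212.4 TPM in T2, and 290.8 and 274.5 TPM in T3. The T1 and T2 libraries overlapped fully, and only the T3 pair was higher. Its T3 level was 1.41-fold that of T1, a log2 change of 0.50 with an SE of 0.10 and a limma adjusted p of 0.000805; under quantile normalization the log2 change was 0.28, with an adjusted p of 0.0149.

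The other hydrolases moved by very different amounts. AMS1 (YGL156W, chromosome VII, 210416 to 213667, plus strand) encodes the vacuolar alpha-mannosidase, which trims free oligosaccharides and reaches the vacuole directly from the cytosol and not through the Golgi. AMS1 was the lowest of the 8 in every library, at 12.6 and 12.3 TPM in T1, 22.8 and 25.4 TPM in T2, and 44.9 and 38.7 TPM in T3. No group overlapped another. Its rise from T1 to T3 was 3.18-fold, a log2 change of 1.67 with an SE of 0.11 and a limma adjusted p of 6.87e-08, the largest among the 8.

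APE3 (YBR286W, chromosome II, 774700 to 776313, plus strand) encodes aminopeptidase Y, which removes residues from the amino end of peptides. It was the most abundant of the 8 in T1 and T2. APE3 was at 285.6 and 305.0 TPM in T1, 325.7 and 369.1 TPM in T2, and 360.8 and 393.7 TPM in T3. The T2 and T3 libraries overlapped, and all 4 lay above T1. The T3 level was 1.28-fold that of T1, with a log2 change of 0.35, an SE of 0.09 and a limma adjusted p of 0.00712. That call was lost under quantile normalization (log2 change 0.13, adjusted p = 0.21) and without T3 replicate B (adjusted p = 0.0647), and over the 17 alternatives tried the adjusted p ran from 0.00261 to 0.21.

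CPS1 (YJL172W, chromosome X, 97737 to 99467, plus strand) encodes carboxypeptidase S, a membrane-bound precursor that is sorted through the multivesicular body. CPS1 had 45.1 and 54.2 TPM in T1, 50.3 and 52.7 TPM in T2, and 59.8 and 60.3 TPM in T3. Both T2 values lay between the T1 values, and the T3 pair was above them all. Its change was the smallest of the 8, 1.21-fold, with a log2 change of 0.28, an SE of 0.11 and a limma adjusted p of 0.0458. Leaving out T1 replicate A ended the call (log2 change 0.15, adjusted p = 0.409), as did leaving out T3 replicate A (0.132) or T3 replicate B (0.144). It was also lost under both other scalings, without the low-value filter and without the abundance trend. The adjusted p over the 17 alternatives ran from 0.01 to 0.409.

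Both inhibitor genes rose a little over 2-fold from T1 to T3. PBI2 (YNL015W, chromosome XIV, 605384 to 605611, plus strand, a coding length of 228 bases) encodes the cytosolic inhibitor of proteinase B, which also acts with thioredoxin in vacuole fusion. PBI2 measured 214.9 and 199.6 TPM in T1, 299.1 and 261.9 TPM in T2, and 485.5 and 436.2 TPM in T3. The groups did not overlap, and in T3 it was the most abundant of the 8 genes. The T3 level was 2.22-fold that of T1, a log2 change of 1.15 with an SE of 0.10 and a limma adjusted p of 5.55e-07.

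PAI3 (YMR174C, chromosome XIII, 610159 to 610365, minus strand, a coding length of 207 bases) encodes the inhibitor of proteinase A, a small protein known to fold into a helix when bound to the enzyme. PAI3 measured 56.8 and 51.3 TPM in T1, 77.9 and 75.0 TPM in T2, and 128.4 and 103.1 TPM in T3. Here too the groups stood apart in rising order. It rose 2.11-fold, a log2 change of 1.08 with an SE of 0.11 and a limma adjusted p of 4.18e-06. PAI3 and PBI2 are the shortest of the 8 coding regions, and with each library's trend against gene length removed their log2 changes were 0.95 and 1.03, with adjusted p-values of 0.00016 and 1.96e-05.

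Levels are per length, so they can be set in order within a library. In T1, APE3 was highest, PEP4, PBI2 and PRC1 followed with overlapping values, then PRB1, then PAI3 and CPS1, which also overlapped, and AMS1 last. All neighbours were separated in T2, where the order was APE3, PBI2, PEP4, PRC1, PRB1, PAI3, CPS1 and AMS1. PBI2 led in both T3 libraries, PEP4 and APE3 overlapped behind it, and PRC1, PRB1, PAI3, CPS1 and AMS1 followed without overlap. The members rested on 301 fragments (PAI3 in T1 replicate B) to 19857 fragments (APE3 in T3 replicate B), so that their 95% Poisson intervals extend 11.5% to 1.39% to either side of the value and cover counting error only. In T3, 6 of the 8 genes were higher in replicate A, the library with the fewest fragments of the 6 (17872647), than in replicate B, the one with the most (23534511). The share of all genes higher in T3 replicate A was not counted, and the part of depth in that difference was not tested.

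Quotients of inhibitor to proteinase transcripts were computed within each library, which cancels any scaling of the library as a whole. A trend against gene length is not cancelled, and no ratio reported here was recomputed with that trend removed. The paired coding lengths are unlike, at 228 bases for PBI2 and 1908 for PRB1, and 207 for PAI3 and 1218 for PEP4. The ratio of PBI2 to PRB1 was 2.07 and 1.78 in T1, 2.26 and 1.85 in T2, and 1.94 and 2.14 in T3. These ranges overlapped, with means of 1.92 ± 0.201 in T1 and 2.04 ± 0.142 in T3 (SD, n = 2 each), and an exact two-sided permutation test gave p = 0.667. The ratio of PAI3 to PEP4 was 0.284 and 0.239 in T1, 0.34 and 0.311 in T2, and 0.329 and 0.296 in T3. Both T3 ratios were above both T1 ratios, and the T3 mean was 1.20-fold the T1 mean. The exact two-sided permutation test gave p = 0.333, the smallest that 2 against 2 libraries allow.

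Another pair was added after its values were seen. TFS1 encodes the inhibitor of carboxypeptidase Y, the product of PRC1, and is also known to bind a regulator of Ras. The ratio of TFS1 to PRC1 was 0.196 and 0.164 in T1, 0.363 and 0.298 in T2, and 0.508 and 0.469 in T3. No group overlapped another, and the T3 mean of 0.488 ± 0.0279 was 2.71-fold the T1 mean of 0.18 ± 0.0226 (SD, n = 2 each; exact two-sided permutation p = 0.333, again the smallest possible). TFS1 itself rose from 36.8 and 35.0 TPM in T1 through 70.0 and 63.3 TPM in T2 to 147.7 and 128.7 TPM in T3. That is 3.77-fold from T1 to T3, a log2 change of 1.91 with an SE of 0.10 and a limma adjusted p of 1.43e-08. Whether this ratio changed more than those of the other pairs was not tested.

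**Figure D2:**
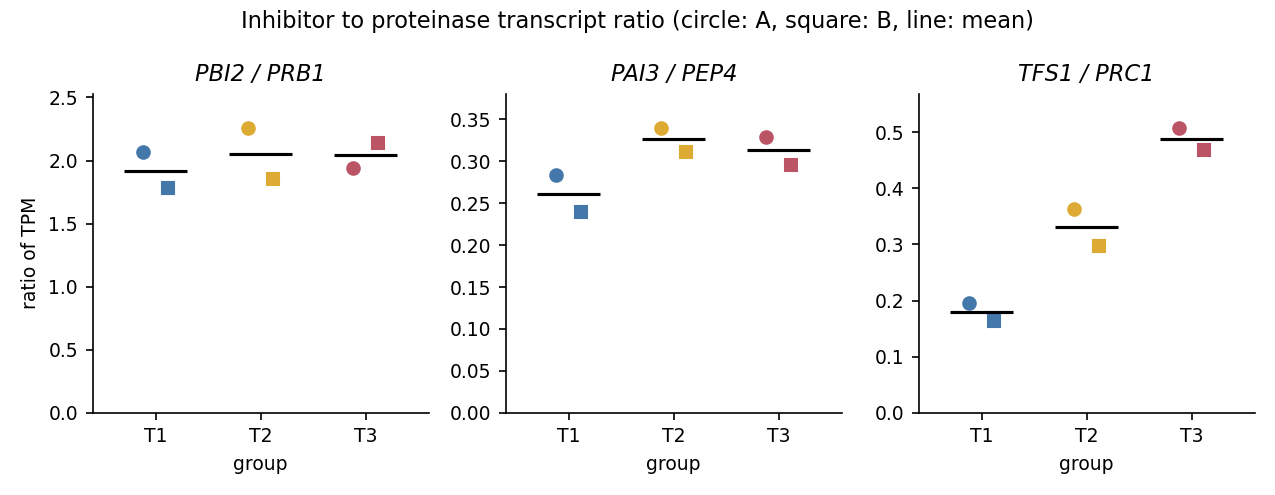
Ratio of the TPM of an inhibitor to that of its proteinase (y axis, from 0) in groups T1, T2 and T3 (x axis), with circles for replicate A, squares for replicate B and lines for means. PBI2 to PRB1 stays between 1.78 and 2.26, PAI3 to PEP4 between 0.239 and 0.34, and TFS1 to PRC1 goes from 0.164 and 0.196 in T1 to 0.469 and 0.508 in T3.

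In T2 against T1, 4 of the 8 were higher and 0 lower, beside 11.9% higher and 6.10% lower among all genes tested, and the median log2 change of the 8 was 0.29 against 0.02 for all genes. The 4 were AMS1 (log2 change 0.90, limma adjusted p = 0.000121), PAI3 (0.49, adjusted p = 0.0084), PBI2 (0.43, adjusted p = 0.0074) and PRB1 (0.34, adjusted p = 0.0431). The genes not called were PEP4, with a log2 change of 0.18 and a 95% interval of -0.02 to 0.38, APE3, with 0.23 (0.03 to 0.43), CPS1, with 0.06 (-0.17 to 0.29), and PRC1, with 0.02 (-0.19 to 0.23). Both inhibitors were thus among the 4 called, with 1 of the 3 proteinases of the cascade. PBI2 lost its call without T2 replicate A (adjusted p = 0.0889) and without the filter on low values (0.0657), and PAI3 only without that filter (0.0841). PRB1 lost its call without T1 replicate A (0.114), T2 replicate A (0.0865) or T2 replicate B (0.183), and over the 17 alternatives its adjusted p ran from 0.00722 to 0.183.

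From T2 to T3, 6 of the 8 were higher and 0 lower, beside 15.8% higher and 6.09% lower among all genes tested, with a median log2 change of 0.62 against 0.07 for all genes. AMS1 rose by a log2 change of 0.77 (limma adjusted p = 0.000362), PRB1 by 0.72 (0.000448), PBI2 by 0.72 (0.000234), PEP4 by 0.65 (0.000317), PAI3 by 0.58 (0.00262) and PRC1 by 0.48 (0.00324). The call of PAI3 was lost without the filter on low values (adjusted p = 0.0556). CPS1, with 0.22 and a 95% interval of -0.01 to 0.45, and APE3, with 0.12 and an interval of -0.08 to 0.32, were not called. PEP4 and PRC1 thus passed the threshold in T3 against T2 and not in T2 against T1.

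**Figure D3:**
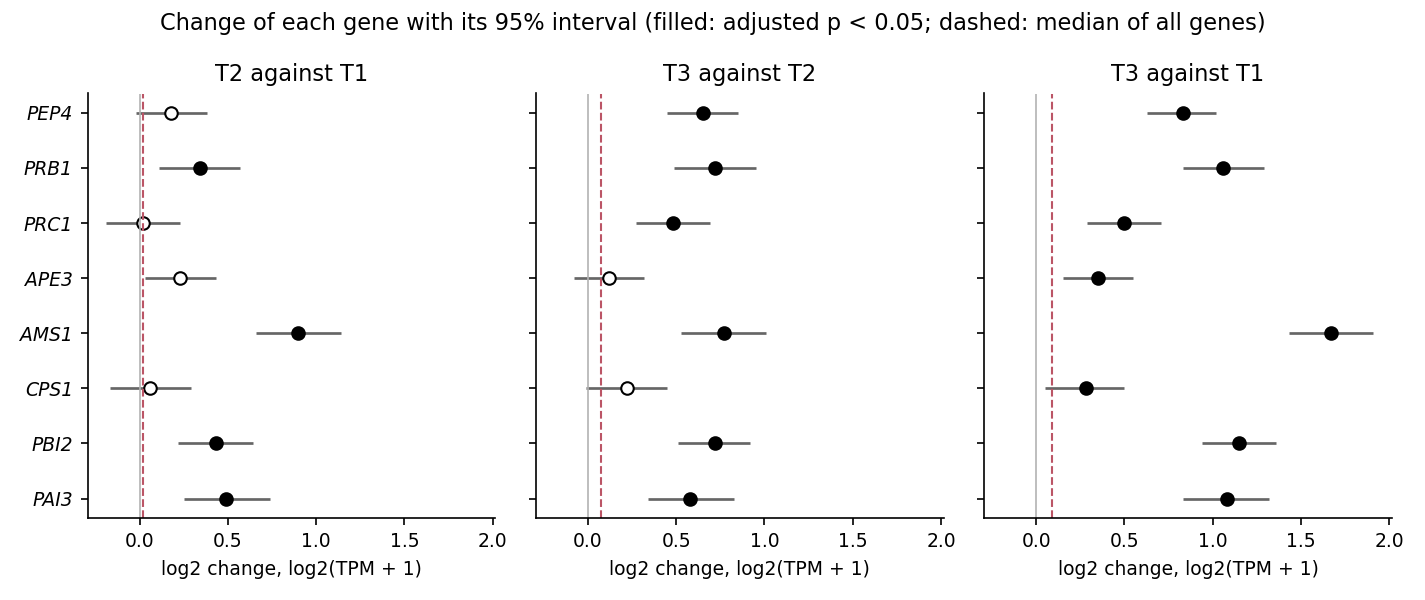
Log2 change on the log2(TPM + 1) scale (x axis) of the 8 genes (y axis) in 3 comparisons, with 95% intervals from limma, filled points for an adjusted p under 0.05, a grey line at 0 and a dashed line at the median of all genes tested. PRC1 sits at 0.02 from T1 to T2 and at 0.48 from T2 to T3, while APE3 goes from 0.23 to 0.12.

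Whether these 2 comparisons differ was tested directly, as the T2 to T3 change minus the T1 to T2 change. Limma called 0 of the 8, beside 0.761% of all genes with a positive and 0.314% with a negative difference, and voom on recovered fragments also called 0. Without adjustment 2 of the 8 passed 0.05, beside 781 of the 6046 genes tested, so that 2 of 8 is no result about these genes. These were PEP4, with a difference of 0.47 on the log2 scale (95% interval 0.13 to 0.81, limma adjusted p = 0.227), and PRC1, with 0.46 (0.10 to 0.82, limma adjusted p = 0.26). As a description, the T1 to T2 change was 3.66% of the T1 to T3 log2 change for PRC1, 20.4% for CPS1, 21.5% for PEP4 and 32.1% for PRB1. The share was 37.7% for PBI2, 45.9% for PAI3, 53.9% for AMS1 and 65.9% for APE3.

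Short stretches upstream of the coding regions are shown because 7 of the 8 genes hold, within 500 bases before the start codon, the letters AGGGG on either strand. AGGGG is the stress response element, known as the binding motif of Msn2 and Msn4, activators of the general stress response. It was in 34.0% of all 5966 windows of that length in R64, and 2 or more copies were in 2 of the 8 genes and 8.13% of windows. The windows are those before the annotated start codon, read on the gene's strand from the SGD R64-5-1 annotation in RefSeq. Capitals mark the motif in 25-base stretches, written 5′ to 3′ on the gene's strand.
PEP4, chrXVI:261270-261294: cgatggattaAGGGGcggaggcggc
PRB1, chrV:42053-42077: tgaatataaaAGGGGgccaatgtta
PRC1, chrXIII:861718-861742: tcattgagacAGGGGccatatcacc
PRC1, chrXIII:861749-861773: gtctcaaagaAGGGGcccactaata
APE3, chrII:774559-774583: ctcaggaagaAGGGGtccttaggaa
CPS1, chrX:97575-97599: cttttattttCCCCTttgggcaaaa
PBI2, chrXIV:605213-605237: ggcgggaaaaAGGGGgcatatcaga
PAI3, chrXIII:610637-610661: gttgtcttaaAGGGGtaccgaaagc
PAI3, chrXIII:610618-610642: gaaagcatttAGGGGaggcttaagg
PAI3, chrXIII:610480-610504: cgggaatctcAGGGGcgaccgcccc

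In CPS1 the motif lies on the opposite strand and so reads CCCCT. The first base of the motif lay 353 bases before the start codon in PEP4, 114 in PRB1, 194 and 163 in PRC1, 131 in APE3, 152 in CPS1, 161 in PBI2, and 286, 267 and 129 in PAI3. AMS1, the gene with the largest rise among the 8, had 0 copies of the 3 motifs searched in its window. GATAAG, the motif of the GATA factors of nitrogen regulation, was in PEP4, PRB1, PRC1, APE3 and CPS1, 5 of the 8 against 22.7% of windows, and in neither inhibitor gene. TGACTC, the motif of Gcn4, was in 0 of the 8 against 12.6% of windows. Among the 15 other vacuolar hydrolases and inhibitors described below, SGA1 had 5 copies of AGGGG, and TFS1, APE1, YBR139W and RNY1 had 2 each. PHO8, ATH1 and PPN1 had 1 each, and DAP2, ATG15, ECM14, YNL217W, PFF1, DPP1 and YSP3 had 0. Whether the copies go with the size of change was not tested. A match describes the letters of the window and shows no binding.

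Paralogs could split reads, since the handling of multiply matched reads is not recorded. PRB1 had 1 further match in the genome, of 717 bases at 68.1% identity with YSP3, and PRC1 had 1, of 545 bases at 67.5% identity with YBR139W. CPS1 had 1 of 1345 bases at 66.2% identity, and the other 5 genes had 0. No annotated gene overlapped any of the 8 coding regions.

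A list of 15 other vacuolar hydrolases and inhibitors gives the setting of the 8. In T3 against T1, 9 of the 15 were higher, 2 lower and 4 not called, beside the 31.0% higher and 16.9% lower of all genes, with a median log2 change of 0.50. Besides TFS1, the largest rises were those of RNY1, a vacuolar ribonuclease of the T2 family (log2 change 1.23, limma adjusted p = 3.08e-06), SGA1, the glucoamylase of sporulation (1.21, adjusted p = 1.23e-05), and YBR139W, a carboxypeptidase related to PRC1 (1.14, adjusted p = 8.23e-07). The acid trehalase gene ATH1 rose by 0.92, YSP3, a subtilisin-type relative of PRB1, by 0.89, PHO8, the vacuolar alkaline phosphatase, by 0.55, and PPN1, an endopolyphosphatase, by 0.50.

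APE1, aminopeptidase I, stood at 41.0 and 40.8 TPM in T1 and 50.9 and 47.0 TPM in T3. Its log2 change was 0.25 (limma adjusted p = 0.0459). The call was lost under median of ratios (0.16, limma adjusted p = 0.0813) and quantile normalization (0.16, adjusted p = 0.0847). It was also lost with the length trend removed (adjusted p = 0.054), with the replicate block (0.059), without the abundance trend (0.0574) and with only the compared groups fitted (0.0523). APE1 was not called when any single library was left out, with log2 changes from 0.2 (without T3 replicate A) to 0.31 (without T3 replicate B). The 2 that fell were YNL217W (PPN2), another endopolyphosphatase, with 47.4 and 51.4 TPM in T1 and 24.4 and 28.2 TPM in T3 (log2 change -0.89, adjusted p = 1.28e-05), and PFF1, a vacuolar membrane metalloprotease (-0.46, adjusted p = 0.00352). Values for the genes not called were 0.21 for ATG15, the lipase of autophagic bodies, 0.19 for DPP1, a lipid phosphatase of the vacuole membrane, 0.08 for DAP2, the dipeptidyl aminopeptidase, and 0.06 for ECM14, a carboxypeptidase-like protein. The relatives PRC1 and YBR139W differed in size of change, 1.41-fold and 2.21-fold, a difference that was not tested. The list had 5 higher and 1 lower in T2 against T1, and 9 higher and 1 lower in T3 against T2. The first of these totals fell to 3 without T2 replicate B, and the second to 5 without T2 replicate A or without T3 replicate A.

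The routes that deliver the enzymes were listed separately, again beside the 31.0% higher and 16.9% lower of all genes in T3 against T1. Of 27 genes for sorting between the Golgi and the vacuole, 13 were higher and 2 lower in T3 than in T1, with a median log2 change of 0.25, and without T3 replicate A these were 7 and 1, and without T1 replicate A 8 and 2. PEP12, the SNARE of the late endosome, rose most, by a log2 change of 1.13 (limma adjusted p = 5.74e-07), and VPS21, the most abundant of the list and an endosomal Rab GTPase, rose by 0.44 (adjusted p = 0.00138). PEP1, the sorting receptor that carries the carboxypeptidase Y precursor, stood at 28.6 and 31.0 TPM in T1, 22.7 and 24.6 TPM in T2, and 22.8 and 21.8 TPM in T3. Both T3 libraries were below both T1 libraries, with a log2 change of -0.40 at a limma adjusted p of 0.00609. The gene of its cargo, PRC1, rose by 0.50.

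The cytoplasm-to-vacuole route carries the products of AMS1 and APE1. Of its 15 genes, 8 were higher and 0 lower, beside 31.0% and 16.9% of all genes, with a median of 0.37. ATG8, the ubiquitin-like protein of autophagosome membranes, rose from 49.2 and 48.4 TPM in T1 to 158.8 and 163.6 TPM in T3, a log2 change of 1.70 (limma adjusted p = 1.38e-08). ATG27, the most abundant, had a log2 change of -0.01 and was not called. ATG19 and ATG34, named here after their values were seen because they encode the receptors of alpha-mannosidase, rose by 0.98 (adjusted p = 8.91e-06) and 0.75 (adjusted p = 0.00097).

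Of 18 genes of the proton pump that acidifies the vacuole, 5 were higher and 1 lower, beside 31.0% and 16.9% of all genes, with a median of 0.13. The split depended on the scaling, with 2 higher and 2 lower under median of ratios, 3 and 4 under quantile normalization and 4 and 4 with the length trend removed. Without T3 replicate A it was 2 and 0, and without T1 replicate A 3 and 2. VMA3, a proteolipid subunit and the most abundant, had 0.15 and was not called. Under quantile normalization VMA3 was called higher, with a log2 change of 0.33 (limma adjusted p = 0.00914). VMA4 rose by 0.48 (limma adjusted p = 0.000327). VPH2, an assembly factor, fell, with a log2 change of -0.36 (adjusted p = 0.0194), a call that was lost without T1 replicate B (0.0822) and without T3 replicate A (0.252). The vacuolar amino acid transporters had 3 higher and 1 lower of 12 tested, also beside 31.0% and 16.9%, with a median of 0.05. Under median of ratios, quantile normalization, length correction and voom they had 3 higher and 3 lower. Among them RTC2, a PQ-loop membrane protein, rose by 1.31 (adjusted p = 6.7e-06), VBA1, a transporter of basic amino acids, fell by 0.40 on the log2 scale (adjusted p = 0.00432), and YPQ1, another PQ-loop protein and the most abundant, had -0.23 and was not called (0.0566). YPQ1 was called lower under 5 alternatives, with adjusted p-values of 0.0473 without the filter, 0.00373 under median of ratios, 0.0037 under quantile normalization, 0.000796 with the length trend removed and 0.0106 with voom.

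Peptidases known mainly as cytosolic were listed too, also beside the 31.0% higher and 16.9% lower of all genes in T3 against T1. Whether any of their products also reaches the vacuole was not examined. Of 10 cytosolic aminopeptidases and peptidases, 6 were higher and 0 lower in T3 against T1, with a median log2 change of 0.37, and without T3 replicate A the total called was 3. LAP3, a cysteine aminopeptidase, rose by 0.69 (limma adjusted p = 0.00012), and DUG1, a dipeptidase of glutathione breakdown and the most abundant, had a log2 change of 0.00.

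The same 5 lists were counted in the other comparisons, beside the shares of all genes given above. In T2 against T1 (11.9% higher and 6.10% lower), the sorting list had 2 higher and 1 lower. The cytoplasm-to-vacuole and cytosolic peptidase lists had 1 higher each, and the pump and transporter lists 0. With the length trend removed, the sorting list had 4 higher and 1 lower, the cytoplasm-to-vacuole list 4 higher and the cytosolic peptidases 3 higher. The sorting list had 1 call without T1 replicate B, T2 replicate A or T2 replicate B. The cytoplasm-to-vacuole list had 2 without T1 replicate A or T2 replicate A, the cytosolic peptidases 0 without T1 replicate A or T2 replicate B, and the pump 1, lower, without T1 replicate A. In T3 against T2 (15.8% higher and 6.09% lower), 0 genes of these 5 lists were called lower. With the length trend removed, however, the sorting list had 8 higher and 3 lower, and the transporters 5 and 1. The pump had 0 calls under median of ratios or quantile normalization, and the sorting list had 1 without the filter on low values. Before such changes, the higher calls numbered 7 for sorting, 5 for the cytoplasm-to-vacuole route, 2 for the pump, 3 for the transporters and 3 for the cytosolic peptidases. Without T2 replicate A these became 2, 2, 0, 1 and 0, and without T3 replicate A they became 1, 2, 0, 1 and 0. Without T2 replicate B the sorting list had 3 and the pump 1, and without T3 replicate B the sorting list had 4, the cytoplasm-to-vacuole list 3 and the transporters 1.

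**Figure D4:**
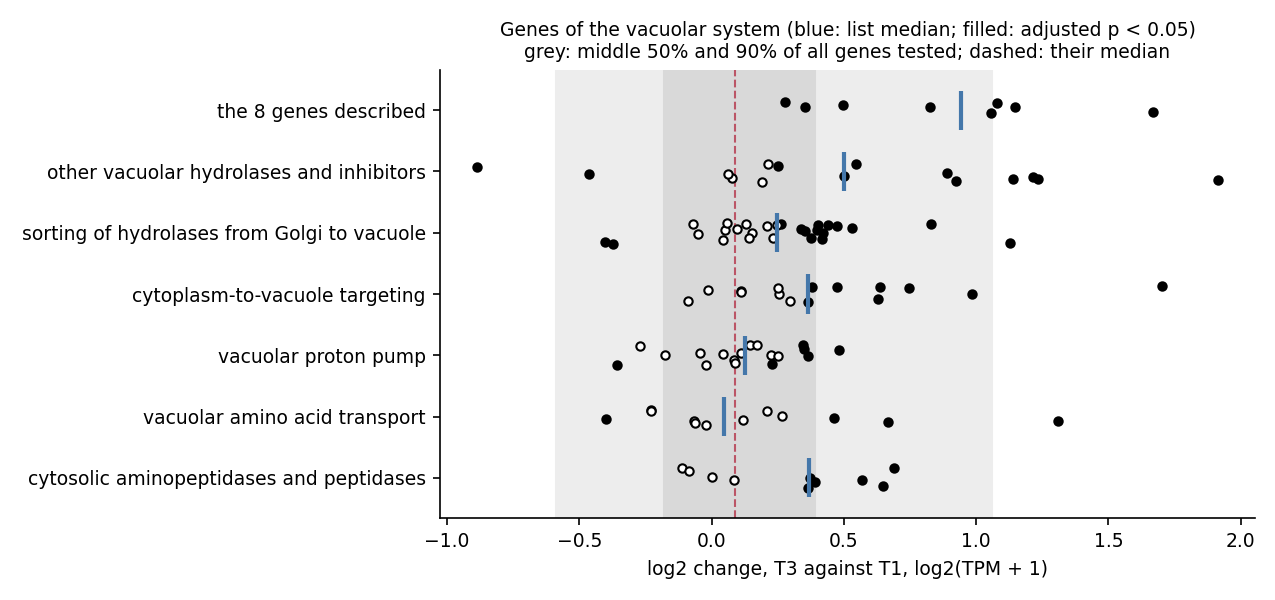
Log2 change in T3 against T1 on the log2(TPM + 1) scale (x axis) of every tested gene of 7 lists (y axis, spread vertically for legibility only), with blue bars at list medians, filled points for an adjusted p under 0.05, grey bands for the middle 50% and 90% of all genes tested and a dashed line at their median. The 8 genes described have a median of 0.94, the 15 other hydrolases and inhibitors 0.50, the proton pump 0.13 and amino acid transport 0.05.

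Genes with the pattern most like that of the 8 were sought among 5144 other genes of 10 TPM or more on average, by the root mean square difference between log2(TPM + 1) profiles centred on each gene's mean. The nearest were LSC1, a subunit of succinyl-CoA ligase (0.0217), ODC1, a mitochondrial oxodicarboxylate carrier (0.033), PCS60, a peroxisomal oxalyl-CoA synthetase (0.0386), CAT2, carnitine acetyltransferase (0.0409), and ATG3, an enzyme of Atg8 conjugation (0.0411). LSC1 held 157.4 and 167.7 TPM in T1, 203.5 and 215.8 TPM in T2, and 313.3 and 280.1 TPM in T3. Among the 8 themselves the distance from their mean profile ran from 0.0673 for PEP4 to 0.341 for AMS1. Of the 5144 genes, 44 lay nearer to it than PEP4, 170 nearer than PRB1 and 289 nearer than PAI3. The number nearer was 433 for PBI2, 580 for PRC1, 1236 for APE3, 1391 for CPS1 and 2546 for AMS1. The mean profile thus describes some of the 8 poorly.

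Facts of the whole table bear on these values as follows. Libraries held 17872647 to 23534511 recovered fragments on genes. The 7 genes specific to haploid a cells ranged from 0.77 to 11.2 TPM and the 5 specific to alpha cells from 19.5 to 3200 TPM; the labels give no mating type. The alpha-cell genes summed to 4085 and 4132 TPM in T1 and to 2220 and 2161 TPM in T3, with 5 of 5 called lower, and of the a-cell genes 2 of 7 were called higher and 0 lower (1 without T1 replicate B). Their part in the results was not tested. The median log2 change of all genes from T1 to T3 was 0.088 with TPM as deposited, -0.004 with median-of-ratios scaling and -0.038 with quantile normalization. Each of the 8 genes stayed above the median of all genes under all 3 scalings. All genes called split into 1877 higher and 1024 lower as deposited, 1591 and 1563 with median-of-ratios scaling, 1419 and 1722 with quantile normalization, and 1712 and 1732 with the length trend removed.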

How the data were processed

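The deposited values are TPM per gene, computed by the authors, per the file headers; what filters they applied is not given in the sources used here. STAR 2.5.2b, Subread 1.5.2, featureCounts and build R64 are named in the submitters' processing notes, and the strand setting and the handling of multiply matched reads are not recorded. Of 6401 entries, 1 without a name (4.74 to 5.83 TPM) was left out. The 8 genes, the gene lists and the tests were chosen with earlier results of these data known.

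Fragments were recovered from TPM and annotated length, and 99.84% to 99.93% of open reading frames with under 500 fragments came within 0.1 of a whole number. Limma 3.58.1 (R 4.3.3) was run on log2(TPM + 1) over 6046 genes averaging 1 TPM or more, with 1 fit of all 6 libraries (3 residual and 10.7 prior degrees of freedom), an abundance trend, two-sided tests and Benjamini-Hochberg adjustment over all genes tested at 0.05. Fold changes come from this scale, so those of low genes are understated. The 17 alternatives were pseudocounts of 0.1 and 5, no filter or a filter of 10 TPM on the mean, median-of-ratios and quantile scaling, no abundance trend, length trend removed, a block for the replicate letter, fits of the compared groups only, voom on recovered fragments, and each library left out in turn.

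Named genes were the 8, all 15 other hydrolases and inhibitors, from each other pathway list the most abundant gene and the largest called rise and fall in T3 against T1, and the 5 genes nearest to the mean profile. The promoter window of 500 bases and the TFS1 to PRC1 ratio were chosen after seeing the data. Motifs were searched on both strands with Python 3.11.15, SciPy 1.17.1 gave the permutation tests, and blastn 2.17.0 searched for paralogs.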

Additional observations from a re-analysis of the deposited data

How the results depend on the processing

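For member calls, T3 against T1, the count of 8 was 6 to 8 over the 17 alternatives. For member calls, T2 against T1, the count of 4 fell to 1 without the filter on low values, rose to 5 with APE3 under length correction or voom, and came to a range of 2 to 4 with libraries left out (2 without T2 replicate A). Counts for T3 against T2 and for its difference from T2 against T1 stayed within 1.5 times of 6 and at 0. No called member changed sign. PRC1 and CPS1, not called in T2 against T1, changed sign there. APE3, AMS1 and PAI3, not called in the difference between the 2 comparisons, changed sign in that difference. The A minus B deviations correlated at 0.132 (T1 and T2), -0.058 (T1 and T3) and -0.15 (T2 and T3). These low values cannot show whether libraries of the same letter share a culture or batch, which the labels do not state. With the replicate block the member counts were 8, 3, 6 and 0, PRB1 in T2 against T1 being the call lost (adjusted p = 0.0576). All genes called in T2 against T1 numbered 1091, and 544 without the filter, 650 without T2 replicate A and 705 without T2 replicate B. In T3 against T2 they numbered 1325, and 627 without the filter, 1993 with the length trend removed, 735 without T2 replicate A and 641 without T3 replicate A. For that difference, 65 genes became 1 (no filter) to 254 (without T1 replicate A). The causes were not tested. Of 35 other named genes, 4 changed their call under some alternative in T3 against T1, 17 in T2 against T1 and 18 in T3 against T2, and 0 called values reversed. With 2 libraries a group, an absent call does not show an absent change.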
